A study of Homo sapiens with 18 samples.

Results

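A set of 50 genes of mitosis and the G2/M transition, out of the 58815 genes in the count table, was followed through WDR5 knockdown in 3 metastatic breast cancer lines. They were taken from a fixed list of names, which was drawn up with earlier results of these data known. Of the 50 genes, 49 were found by their symbol. KIF23 was found by its gene identifier, ENSG00000137807, because its symbol is blank in the table. All 50 passed the filter on low counts that left 12160 tested genes.

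RNA-seq counts came from 18 libraries of LM2, BrM3 and BoM cells, which are derivatives of the human triple-negative breast cancer line MDA-MB-231 that colonise lung, brain and bone. Each line carried a doxycycline-inducible control hairpin (shCtrl) or a hairpin against WDR5 (shWDR5), in the vector pINDUCER10, and all 18 libraries, controls included, came from cells kept in DOX at 1 μg/mL for 3 days. There were 3 libraries per line and hairpin, harvested at different passages. WDR5 is a scaffold subunit of the KMT2 histone methyltransferase complexes and a binding partner of MYC, and the study asked what its loss does to these cells. No untreated, hairpin-free or parental cells were among the 18 libraries. The brain derivative is called BrM in the titles, BrM2 in the cell line labels and BrM3 in the study, and the last name is used here. The source labels name other lines than the titles for most libraries and were not used.

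Cells enter mitosis when cyclin B and CDK1 are switched on by CDC25 phosphatases and by the kinases PLK1 and Aurora A. The spindle checkpoint then holds back CDC20 and the anaphase-promoting complex (APC/C) until every kinetochore is attached, after which cyclin B and securin are destroyed, separase opens cohesin and the cell divides at the spindle midzone. Transcripts of these genes accumulate together in G2 and mitosis, under FOXM1 and the MuvB complex with MYBL2, and are repressed in quiescent cells by MuvB within the DREAM complex. MuvB binds a short promoter element, the cell cycle genes homology region (CHR), and NF-Y binds nearby CCAAT boxes. In bulk samples such as these, fewer cells in G2/M and less RNA of these genes per cell cannot be told apart.

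The promoters carried this shared signature. Promoter windows of 250 bases before to 50 bases after the annotated start, from RefSeq on GRCh38.p14, were matched for 43 of the 50 genes. A CHR was counted where TTTGAA or TTCGAA stood on either strand, and a CCAAT box where CCAAT stood on either strand, overlaps allowed. A CHR was present in 31 of 43 windows (72.1%), against 11.3% of the 9380 windows of tested genes and 16.6% of all 27305 windows. A CCAAT box was present in 34 (79.1%), against 37.0% and 35.7%. Both were present in 26 (60.5%), against 4.89% and 6.58%. These are matches of letters and not sites of measured binding. The stretches before the start are shown for the 3 genes with a CHR that had the smallest p-values for knockdown among those with at most 30 exonic bases in the stretch, and for both B-type cyclins, of which CCNB1 has no CHR in its window. Capitals mark CHR and CCAAT matches, read on the strand of the gene, so that ATTGG is a CCAAT box on the other strand and TTCAAA a CHR on the other strand.
CDCA8 (chr1:37692266-37692510, plus strand): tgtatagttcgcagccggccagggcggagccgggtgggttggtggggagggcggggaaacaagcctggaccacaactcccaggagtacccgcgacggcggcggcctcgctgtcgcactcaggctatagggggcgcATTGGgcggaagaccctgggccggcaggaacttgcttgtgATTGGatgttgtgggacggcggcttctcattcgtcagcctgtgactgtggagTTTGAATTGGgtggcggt
CDC20 (chr1:43358731-43358980, plus strand): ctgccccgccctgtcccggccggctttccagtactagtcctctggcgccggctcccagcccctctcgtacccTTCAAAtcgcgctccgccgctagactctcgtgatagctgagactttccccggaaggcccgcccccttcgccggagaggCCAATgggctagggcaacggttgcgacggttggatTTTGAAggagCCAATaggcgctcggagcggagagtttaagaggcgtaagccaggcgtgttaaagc
ANLN (chr7:36389612-36389850, plus strand): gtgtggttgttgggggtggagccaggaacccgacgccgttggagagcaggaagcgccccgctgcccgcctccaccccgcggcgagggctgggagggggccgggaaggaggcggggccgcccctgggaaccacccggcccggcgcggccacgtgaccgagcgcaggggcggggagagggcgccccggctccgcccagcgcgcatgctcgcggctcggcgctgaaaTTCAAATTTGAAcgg
CCNB1 (chr5:69166900-69167149, plus strand): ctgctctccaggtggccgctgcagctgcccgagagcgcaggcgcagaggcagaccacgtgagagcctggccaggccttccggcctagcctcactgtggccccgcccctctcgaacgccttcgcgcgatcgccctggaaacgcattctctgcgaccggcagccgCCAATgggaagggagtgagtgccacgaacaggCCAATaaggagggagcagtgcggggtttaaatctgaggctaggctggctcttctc
CCNB2 (chr15:59104896-59105145, plus strand): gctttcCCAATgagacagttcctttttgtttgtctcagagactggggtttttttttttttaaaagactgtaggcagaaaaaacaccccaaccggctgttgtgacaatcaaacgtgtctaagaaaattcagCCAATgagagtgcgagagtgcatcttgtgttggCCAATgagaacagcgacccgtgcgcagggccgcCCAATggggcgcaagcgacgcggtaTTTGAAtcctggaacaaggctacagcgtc

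In CCNB2 the CHR lies 29 bases before the start with a CCAAT box at 54. In CDCA8 the CHR lies 23 bases before the start and shares its last base with a CCAAT box on the other strand. ANLN has adjoining CHR matches and no CCAAT box. CCNB1 has CCAAT boxes at 87 and 55 bases before the start.

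**Figure D1:**
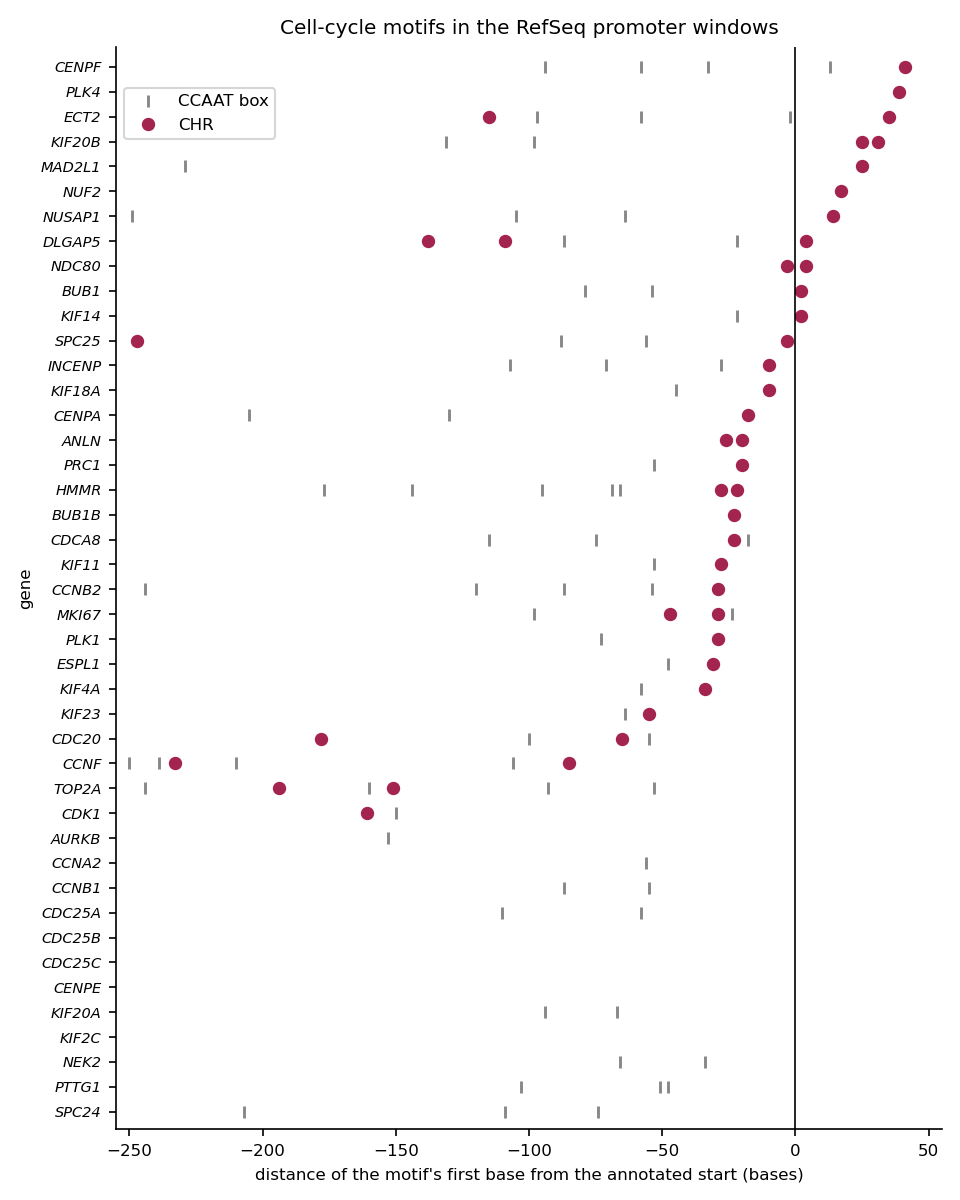
Distance of each CHR (red) and CCAAT box (grey) match from the annotated start, in bases, for the 43 genes with a RefSeq window, ordered by the CHR match farthest downstream. CHR matches stand in 31 genes, most of them near the start, and CCAAT boxes in 34, mostly upstream of it.

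The hairpin lowered WDR5 in all 3 lines. In LM2, WDR5 stood at 113, 128 and 134 CPM (counts as a share of the library, scaled by TMM, the trimmed mean of M-values) in shCtrl and at 24.3, 24.4 and 20.5 CPM in shWDR5, a log2 fold change of -2.43 ± 0.14 (SE) with an adjusted p of 1.8e-08 by edgeR's quasi-likelihood test. That of BrM3 was -1.97 (edgeR adjusted p = 4.2e-07) and that of BoM -2.24 (edgeR adjusted p = 6.2e-08), and no shWDR5 library reached the lowest shCtrl library of its line. Library totals ran from 17485841 to 119667013 counts, and in all 18 replicate pairs the counts were farther apart than read sampling gives, so each library was kept as its own sample. The mesenchymal markers VIM, at 1490 to 2230 CPM, and CD44, at 497 to 765 CPM, and EGFR, at 374 to 899 CPM, were abundant throughout. ESR1 and PGR, the estrogen and progesterone receptors, stayed under 1 CPM. ERBB2, which encodes HER2, was not absent, at 41.4 to 83.3 CPM, and the epithelial marker EPCAM stood at 4.39 to 10.1 CPM. The leukocyte marker PTPRC stood at 0.0993 to 1.06 CPM, the endothelial marker PECAM1 at 0.848 to 4.67 CPM and the hepatocyte marker ALB at 0 to 0.225 CPM.

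WDR5 knockdown left the mitotic genes close to their control levels, with a slight upward shift in each line. Summed over the 50 genes, the LM2 libraries held 12168, 10671 and 10454 CPM in shCtrl and 12686, 12030 and 10845 CPM in shWDR5, and these ranges overlapped. The BrM3 sums were 10141, 9765 and 10182 CPM in shCtrl and 11271, 10364 and 10457 CPM in shWDR5. In BoM the sums were 11786, 11237 and 12290 CPM in shCtrl and 13008, 13313 and 12938 CPM in shWDR5. Every shWDR5 sum of BrM3 and BoM stood above the shCtrl sums of its line. In both lines the TMM factors of all shWDR5 libraries were below those of the shCtrl libraries, so this separation rests in part on the scaling. Sums under other scalings, or of other sets of genes of this size, were not compared. As a median log2 fold change, the 50 genes had 0.08 for LM2, 0.07 for BrM3 and 0.09 for BoM, while all tested genes together had -0.00, -0.00 and 0.02. Upper-quartile scaling, which moved the median of all genes to -0.05 in each line, gave 0.03, 0.02 and 0.02 for these 50, so both medians moved down together.

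Few of the 50 were called in any single line at an adjusted p under 0.05 over all tested genes. In LM2, 0 of 50 were called by edgeR, where 6.29% of all tested genes were (181 or 1.49% up-regulated, 584 or 4.8% down-regulated). There 2 of the 50 had an unadjusted p under 0.05, against 20.1% of tested genes, and DESeq2 also called 0. In BrM3, only CDCA8 was called, up-regulated, where 10.9% of all tested genes were called, 2.92% up-regulated and 7.96% down-regulated. In BoM, BUB3 and HMMR were called, both up-regulated, where 16.2% of all tested genes were called, 5.41% up-regulated and 10.8% down-regulated. No gene of the 50 was called as down-regulated in a single line. Averaging the 3 lines in the same fit, which is the most precise contrast in these data, called 10 as up-regulated and 1, SPC24, as down-regulated. That is 22% of the 50, against 35.5% of all tested genes (1901 or 15.6% up-regulated, 2417 or 19.9% down-regulated). The number of up-regulated genes among the 50 moved with the scaling, to 4 under upper-quartile scaling and to 17 with an offset for GC content. All tested genes moved with it, to 9.19% up- and 25.4% down-regulated under upper-quartile scaling and to 25.0% and 23.9% with the GC offset. Of the 50, BUB3, CDCA8, CDC20 and HMMR were called under each of the 8 alternatives.

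The sizes were small even where a call was made. Over the mean of the lines the 50 log2 fold changes ran from -0.37 in PRC1 to 0.31 in PTTG1, and 44 of 50 lay within 0.25 of 0, as did 70.9% of all tested genes. The fit bounded most responses closely: the 95% interval stayed within ±0.5 on the log2 scale, or between 0.707 and 1.41 times the control level, for 44 genes in LM2, 44 in BrM3, 30 in BoM and 47 over the mean of the lines. A change by 2 times in either direction lay outside the interval of all 50 in LM2, BrM3 and the mean, and of 49 in BoM. In sign, 28 genes were above 0 in all 3 lines, where 35.0% of tested genes were, 7 were below 0 in all 3, where 33.5% were, and 15 were mixed. The 7 below 0 were PRC1, NUSAP1, SPC24, INCENP, SPC25, CENPA and CCNA2, and of these only SPC24 was called. The signs depended on the scaling. Over the mean of the lines 43 of the 50 were above 0 with TMM and 30 under upper-quartile scaling, which moved the median of all genes to -0.05. With a GC offset and replicate block 35 were above 0.

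**Figure D2:**
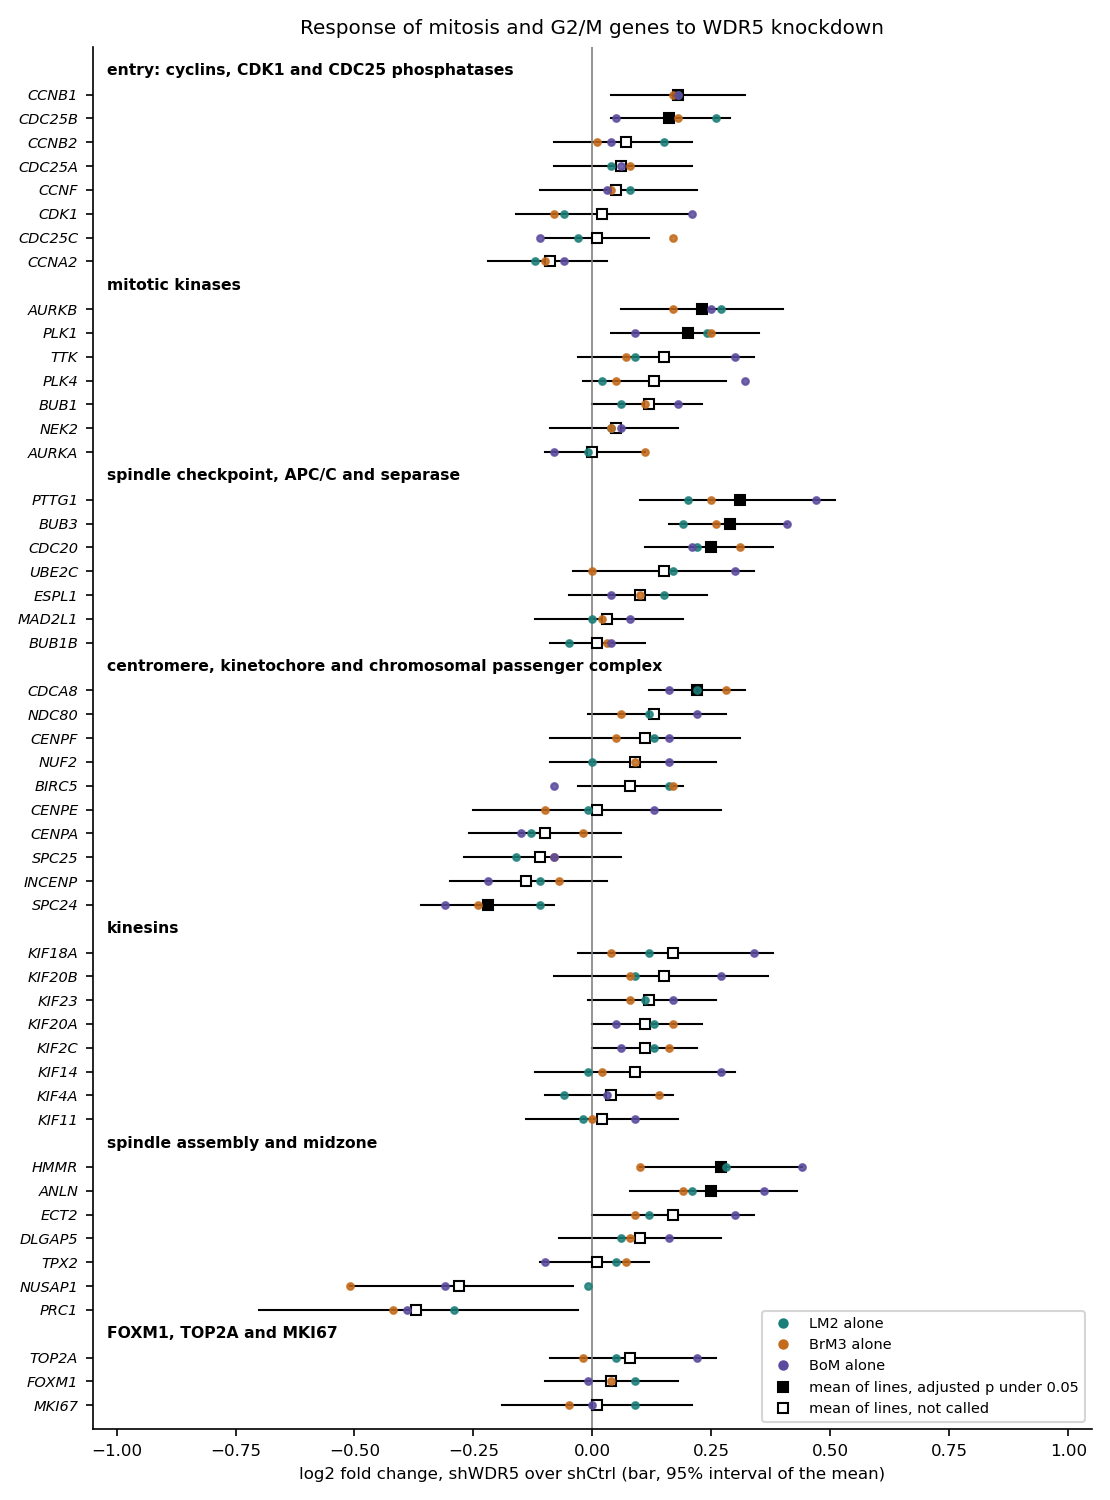
Log2 fold change of shWDR5 over shCtrl for the 50 genes by role: squares, mean of the 3 lines with its 95% interval (filled where called at an adjusted p under 0.05), dots, each line alone. Filled squares of 10 genes stand between 0.16 and 0.31 to the right of 0 and 1, SPC24, at -0.22, and most other intervals cross 0.

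Among the genes that start mitosis, 2 of 8 were called up-regulated over the mean of the lines, with a median log2 fold change of 0.06 across the 8. Of all tested genes, 15.6% were up-regulated and 35.5% were called in either direction. A group of 8 is too small to set apart by this count. CCNB1 (cyclin B1, the main activator of CDK1 at mitotic entry, chr5:69167135-69178245) stood at 546, 425 and 441 CPM in shCtrl and 545, 497 and 559 CPM in shWDR5 of LM2. The BrM3 values were 398, 398 and 448 CPM in shCtrl and 462, 469 and 468 CPM in shWDR5, and the BoM values were 528, 550 and 626 against 534, 662 and 730 CPM. Only in BrM3 did the groups not overlap. The log2 fold change lay between 0.17 and 0.18 in each line, and was 0.18 ± 0.07 (SE) over the mean of the lines, with an edgeR adjusted p of 0.049. CDC25B, one of the phosphatases that activate CDK1 (chr20:3786772-3806121), stood at 137, 173 and 165 CPM in shCtrl and 187, 191 and 192 CPM in shWDR5 of LM2. Its BrM3 libraries held 171, 191 and 174 against 178, 217 and 212 CPM, and its BoM libraries 158, 176 and 174 against 177, 189 and 159 CPM. The groups were apart in LM2 and overlapped in the other two lines, and the mean of the lines was 0.16 ± 0.06 (SE, edgeR adjusted p = 0.036). CDK1 itself, the catalytic partner of the mitotic cyclins, was at 284 ± 42.2 CPM (mean ± SD, n = 3) in shCtrl and 271 ± 25.4 CPM in shWDR5 of LM2, at 220 ± 13.2 and 208 ± 47.5 CPM in BrM3, and at 264 ± 19.9 and 305 ± 44 CPM in BoM. Its mean log2 fold change was 0.02, with a 95% interval from -0.16 to 0.20. CCNA2, CCNB2, CCNF, CDC25A and CDC25C lay between -0.09 and 0.07 over the mean of the lines.

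Of the 7 mitotic kinases, AURKB and PLK1 were called up-regulated over the mean of the lines, where 15.6% of all tested genes were. The median log2 fold change of the 7 was 0.13. AURKB, the kinase of the chromosomal passenger complex (chr17:8204733-8210600), stood at 104, 119 and 127 CPM in shCtrl and 135, 135 and 151 CPM in shWDR5 of LM2. In BrM3 it stood at 123, 151 and 141 against 137, 160 and 170 CPM, and in BoM at 141, 174 and 157 against 145, 195 and 223 CPM. Its LM2 groups did not overlap, and the mean of the lines was 0.23 ± 0.08 (SE, edgeR adjusted p = 0.032). PLK1, which drives entry, centrosome maturation and cytokinesis (chr16:23677656-23690367), stood at 92.4, 118 and 129 CPM in shCtrl and 128, 118 and 156 CPM in shWDR5 of LM2. It stood at 109, 135 and 117 against 129, 148 and 154 CPM in BrM3, and at 116, 124 and 115 against 116, 136 and 127 CPM in BoM. All 3 pairs of groups overlapped, and the mean was 0.20 ± 0.07 (SE, edgeR adjusted p = 0.046). AURKA, the spindle pole kinase that activates PLK1, was not called: its group means in shCtrl and shWDR5 were 323 ± 36 and 321 ± 31.7 CPM in LM2, 295 ± 9.46 and 318 ± 7.18 CPM in BrM3, and 392 ± 8.25 and 369 ± 19.6 CPM in BoM. The 95% interval of its mean log2 fold change ran from -0.10 to 0.11. The calls of CCNB1, CDC25B, AURKB and PLK1 lay near the threshold, and each was lost under upper-quartile scaling, with edgeR adjusted p of 0.18, 0.18, 0.11 and 0.16. When each of the 18 libraries was dropped in turn, they held in 5, 8, 10 and 5 fits.

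In the spindle checkpoint and APC/C group 3 of 7 were called up-regulated, where 15.6% of all tested genes were, and the median was 0.15. A group of 7 is too small to set apart from the other roles by this count. BUB3, the checkpoint protein that brings BUB1 and BUBR1 to kinetochores (chr10:123154402-123170467), had the smallest p of the 50. It stood at 390, 329 and 364 CPM in shCtrl and 412, 396 and 426 CPM in shWDR5 of LM2. In BrM3 it stood at 521, 569 and 595 against 696, 661 and 659 CPM, and in BoM at 599, 598 and 651 against 693, 823 and 939 CPM. Every shWDR5 library lay above every shCtrl library of its line. Its log2 fold changes for LM2, BrM3 and BoM were 0.19, 0.26 and 0.41 (edgeR adjusted p = 0.31, 0.11 and 0.0096), and the mean of the lines was 0.29 ± 0.06 (SE, edgeR adjusted p = 9.6e-04), a level 1.22 times that of the controls. Fitted on the BoM libraries alone, BUB3 had an adjusted p of 0.067. CDC20, the APC/C activator that the checkpoint inhibits (chr1:43358981-43363203), stood at 323, 340 and 331 CPM in shCtrl and 420, 368 and 372 CPM in shWDR5 of LM2. It stood at 437, 466 and 428 against 445, 588 and 618 CPM in BrM3, and at 469, 540 and 519 against 527, 624 and 617 CPM in BoM. Only the LM2 groups were fully apart, and the log2 fold change was 0.22, 0.31 and 0.21 in LM2, BrM3 and BoM, with a mean of 0.25 ± 0.06 (SE, edgeR adjusted p = 0.0057). PTTG1, or securin, the inhibitor of separase (chr5:160421855-160428739), had the highest mean log2 fold change and also wide replicates. Its values were 259, 190 and 218 CPM against 244, 237 and 286 CPM in LM2, 256, 246 and 291 against 287, 326 and 327 CPM in BrM3, and 199, 255 and 259 against 233, 331 and 423 CPM in BoM. Its groups overlapped in every line, and the mean was 0.31 ± 0.10 (SE, edgeR adjusted p = 0.023), or 0.27 with an edgeR adjusted p of 0.052 without LM2 shCtrl replicate 2. Upper-quartile scaling also ended its call (edgeR adjusted p = 0.062). MAD2L1 and BUB1B, the other checkpoint subunits listed, had mean log2 fold changes of 0.03 and 0.01, and ESPL1, the separase, and UBE2C, the ubiquitin-conjugating enzyme of the APC/C, had 0.10 and 0.15, none of them called.

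At the centromere and kinetochore the calls went both ways. CDCA8 (borealin, which targets the chromosomal passenger complex to centromeres, chr1:37692481-37709719) stood at 169, 165 and 165 CPM in shCtrl and 211, 188 and 182 CPM in shWDR5 of LM2. In BrM3 it stood at 182, 188 and 186 against 196, 236 and 242 CPM, and in BoM at 224, 213 and 225 against 238, 261 and 241 CPM. As with BUB3, the shWDR5 libraries lay above the shCtrl libraries in all 3 lines. The log2 fold change was 0.22, 0.28 and 0.16 in LM2, BrM3 and BoM (edgeR adjusted p = 0.14, 0.042 and 0.21), and 0.22 ± 0.05 (SE, edgeR adjusted p = 0.0021) over the mean of the lines. Its BrM3 call was lost when the line was fitted alone (adjusted p = 0.064) and in 9 of 18 fits with a single library dropped. SPC24, a subunit of the NDC80 complex that links kinetochores to microtubules (chr19:11131520-11155807), stood at 41.4, 41.3 and 33.0 CPM in shCtrl and 38.7, 36.7 and 31.2 CPM in shWDR5 of LM2. It stood at 30.7, 34.7 and 32.3 against 24.7, 28.0 and 29.7 CPM in BrM3, and at 25.3, 25.6 and 24.8 against 18.3, 22.8 and 20.1 CPM in BoM. The shWDR5 libraries lay below all shCtrl libraries in BrM3 and BoM and overlapped with them in LM2. The mean log2 fold change was -0.22 ± 0.07 (SE, edgeR adjusted p = 0.016), and the call was lost with a GC offset (edgeR adjusted p = 0.069) and with no filter on low counts (edgeR adjusted p = 0.10). The other subunits of the NDC80 complex, NDC80, NUF2 and SPC25, had mean log2 fold changes of 0.13, 0.09 and -0.11 and were not called. BIRC5 (survivin) and INCENP, partners of CDCA8 and AURKB in the chromosomal passenger complex, had 0.08 and -0.14 and were not called. CENPA, the centromeric histone, had -0.10, and CENPE and CENPF had 0.01 and 0.11.

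Of the 8 kinesins 0 were called by edgeR, although all 8 had a mean log2 fold change above 0, from 0.02 in KIF11, the bipolar spindle motor, to 0.17 in KIF18A, which shortens kinetochore fibres. By edgeR, 2 of the 8 had an unadjusted p under 0.05 over the mean of the lines, where 5460 of 12160 tested genes did. Of all tested genes, 6140 were above 0 in this contrast and 35.5% were called in either direction. KIF23 and KIF20A, motors of the central spindle and cytokinesis, had 0.12 and 0.11.

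Of the spindle assembly and midzone genes, HMMR and ANLN were called up-regulated over the mean of the lines, 2 of 7, where 15.6% of all tested genes were. HMMR, a microtubule-associated protein of the spindle poles (chr5:163460203-163491941), was low, at 23.7, 18.9 and 20.5 CPM in shCtrl and 26.2, 26.8 and 23.0 CPM in shWDR5 of LM2. Its BrM3 libraries held 19.4, 16.1 and 19.8 against 25.3, 16.4 and 18 CPM, and its BoM libraries 27.3, 28.8 and 29.2 against 36.2, 39.3 and 39.9 CPM. The groups were far apart in BoM and overlapped in LM2 and BrM3. The log2 fold change was 0.44 ± 0.14 (SE, edgeR adjusted p = 0.040) in BoM and 0.27 ± 0.08 (SE, edgeR adjusted p = 0.014) over the mean of the lines, and the BoM call was lost in 8 of 18 such fits. ANLN (anillin, a scaffold of the cytokinetic ring, chr7:36389821-36453791) stood at 654, 524 and 502 CPM in shCtrl and 724, 679 and 542 CPM in shWDR5 of LM2. It stood at 390, 337 and 356 against 495, 371 and 367 CPM in BrM3, and at 624, 515 and 605 against 847, 727 and 665 CPM in BoM. Only in BoM were the groups apart, and the mean was 0.25 ± 0.08 (SE, edgeR adjusted p = 0.023). The ANLN call was lost without BoM shCtrl replicate 2 (0.23, edgeR adjusted p = 0.051), without LM2 shWDR5 replicate 1 (0.22, edgeR adjusted p = 0.054) and under upper-quartile scaling (0.20, edgeR adjusted p = 0.071).

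NUSAP1 and PRC1, microtubule bundlers of the spindle and midzone, had low counts and the lowest mean log2 fold changes of the 50. NUSAP1 (chr15:41320794-41381050) stood at 19.6, 17.9 and 9.95 CPM in shCtrl and 12.8, 16.7 and 17.4 CPM in shWDR5 of LM2, at 13.4, 14.7 and 12.5 against 9.36, 10.0 and 9.05 CPM in BrM3, and at 13.2, 13.7 and 14.5 against 12.8, 9.81 and 10.8 CPM in BoM. The groups were apart in BrM3 and BoM, and the mean log2 fold change of -0.28 ± 0.11 (SE) had an edgeR adjusted p of 0.062. Without LM2 shCtrl replicate 3, the library at 9.95 CPM, it was -0.36 with an edgeR adjusted p of 0.0019. That was the smallest of the 18 fits with a single library dropped, where the edgeR adjusted p ran up to 0.13. NUSAP1 passed the threshold in 2 of these 18 fits and in 4 of 8 alternatives. Counts of both genes are uncertain, because another gene on the same strand shares 81.4% of the exonic bases of NUSAP1 and another 57.6% of those of PRC1. Over the 18 libraries the gene overlapping NUSAP1 in this way had 0 counts and the gene overlapping PRC1 had 7330. How reads of shared exons were counted was not tested. PRC1 had 1505 counts over the 18 libraries, as few as 12 in 1 of them, so that counting error is large for this gene, with a mean log2 fold change of -0.37 and a 95% interval from -0.70 to -0.03 (edgeR adjusted p = 0.082). TPX2, DLGAP5 and ECT2, the other genes of this group, had 0.01, 0.10 and 0.17.

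FOXM1, TOP2A and MKI67, the transcription factor of the G2/M programme and the 2 genes most used as proliferation markers, were not called. FOXM1 stood at 225 ± 7.97 CPM in shCtrl and 239 ± 25.1 CPM in shWDR5 of LM2, at 161 ± 1.72 and 166 ± 30.9 CPM in BrM3, and at 208 ± 10.3 and 207 ± 23.2 CPM in BoM (mean ± SD, n = 3 each). Its mean log2 fold change was 0.04, with a 95% interval from -0.10 to 0.18. TOP2A, the topoisomerase that resolves sister chromatids, stood at 1160 ± 179 and 1200 ± 149 CPM in LM2, 858 ± 53.8 and 845 ± 183 CPM in BrM3, and 1130 ± 116 and 1310 ± 139 CPM in BoM. MKI67, which encodes the Ki-67 antigen, stood at 1010 ± 96.8 and 1070 ± 197 CPM in LM2, 895 ± 56.4 and 862 ± 76.0 CPM in BrM3, and 857 ± 91.0 and 858 ± 230 CPM in BoM. The mean log2 fold change of MKI67 was 0.01, and its interval, from -0.19 to 0.21, leaves room for a small change in either direction.

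**Figure D3:**
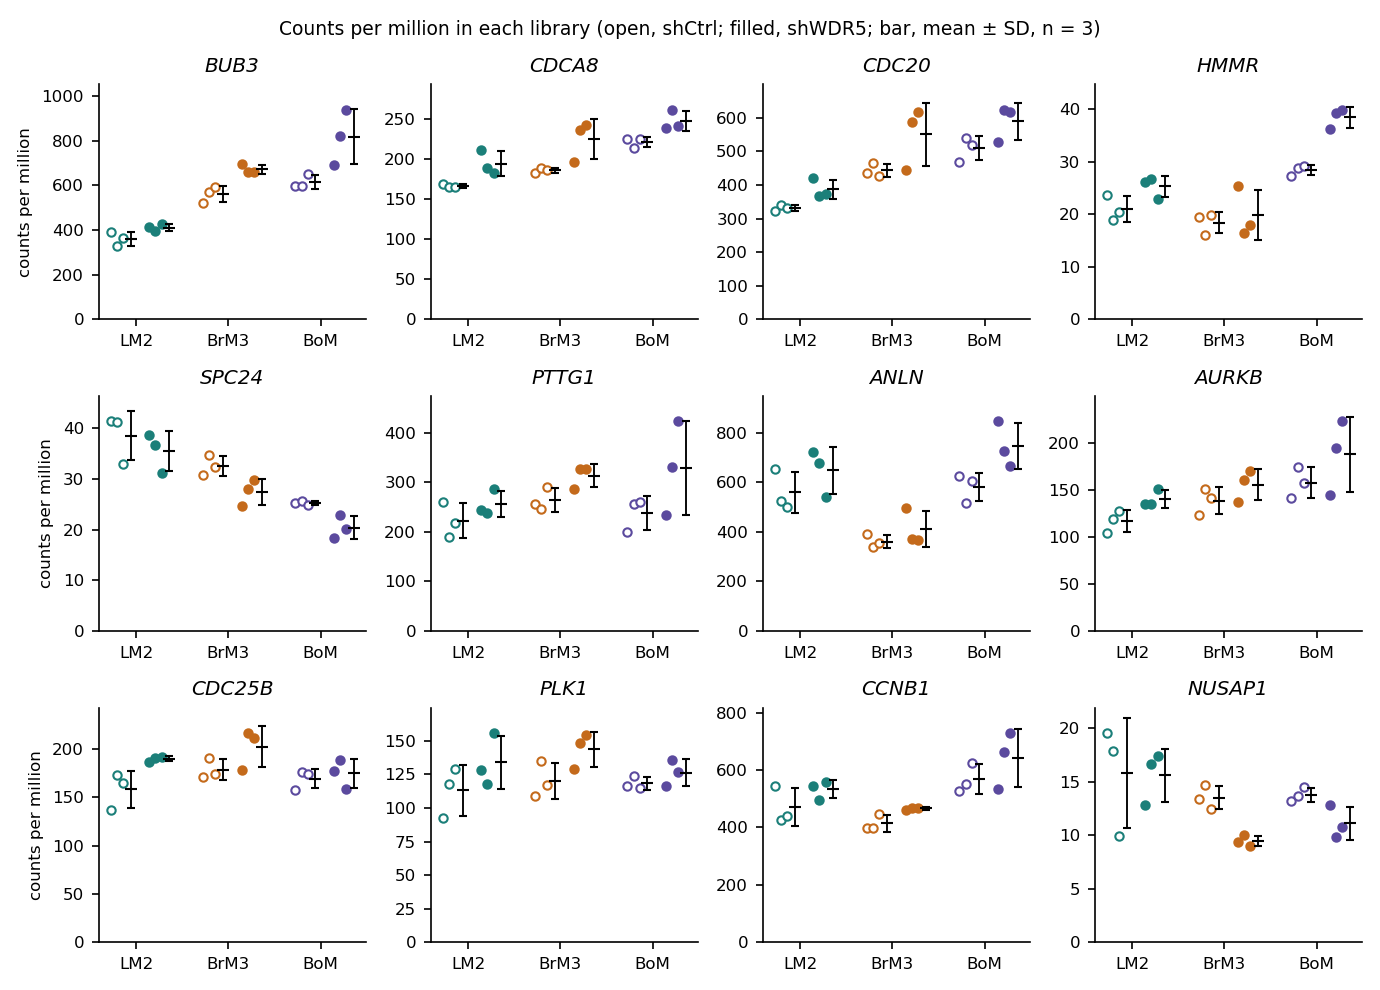
CPM in each library for the 12 genes with the smallest p over the mean of the lines, shCtrl as open and shWDR5 as filled points, with the mean ± SD of 3 libraries beside them. BUB3 and CDCA8 have all filled points above the open points of the same line in all 3 lines, and SPC24 and NUSAP1 have them below in BrM3 and BoM.

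Counted without a model, 5 of the 50 had every shWDR5 library above every shCtrl library in LM2, where 10.7% of tested genes did, and 0 had every library below, where 14.6% did. In BrM3, 7 were fully higher (15.9% of tested genes) and 2 fully lower (19.7%). In BoM, 10 were fully higher (12.8%) and 2 fully lower (17.3%), the lower ones being NUSAP1 and SPC24 in both lines. BUB3 and CDCA8 were fully higher in all 3 lines, 2 of 50, against 3.39% of tested genes, and 0 were fully lower in all 3, against 7.14%.

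Hardly any gene was called for a difference in response between the lines, among the 50 or among all tested genes. For the difference in response between each pair of lines, edgeR called 0 of the 50, where it called 0.00822%, 0.0% and 0.00822% of tested genes for BrM3 against LM2, BoM against LM2 and BoM against BrM3. With an unadjusted p under 0.05 there were 0, 0 and 1 of the 50, against 2.97%, 5.18% and 2.9% of tested genes, and DESeq2 also called 0 in each. That gene was CDC25C, a CDK1-activating phosphatase (chr5:138285269-138338355). It stood at 30.9, 29.1 and 31.5 CPM in shCtrl and 33.6, 33.8 and 35.5 CPM in shWDR5 of BrM3, and at 34.1, 35.1 and 32.9 against 29.2, 33.0 and 32.3 CPM in BoM. The BrM3 values were fully higher under knockdown and the BoM values were not, and the difference of -0.28 had a 95% interval from -0.56 to -0.01 and an edgeR adjusted p of 1. BIRC5, an inhibitor of apoptosis and passenger complex subunit (chr17:78214186-78225636), stood at 151, 167 and 156 against 166, 183 and 184 CPM in BrM3 and at 187, 210 and 186 against 164, 201 and 187 CPM in BoM, a difference of -0.25 with a 95% interval from -0.51 to 0.02. Among members with a CHR in the promoter window, 5 of 31 were called up-regulated over the mean of the lines. Among those without a CHR 4 of 12 were, with 1 down-regulated, and of the 7 without a window 1 was up-regulated. Of all tested genes, 15.6% were up- and 19.9% down-regulated in this contrast. The median log2 fold change was 0.09 with and without a CHR and 0.08 without a window. Differences between these small sets were not tested.

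Control levels differed between the lines for many of these genes, as they did for many of all tested genes. Between pairs of lines 38% to 42% of the 50 were called, where 37.6% to 51.8% of all tested genes were. BrM3 shCtrl had the lowest mean of the 3 lines for 26 of the 50 and the highest for 5, a count not made for all tested genes. Between shCtrl of BoM and BrM3, 19 were higher and 2 lower in BoM, or 42%, where 37.6% of all tested genes were called, 2169 (17.8%) higher and 2407 (19.8%) lower. The median log2 difference of the 50 was 0.28, against -0.00 for all tested genes. Without a model, all BoM shCtrl libraries were above all BrM3 shCtrl libraries for 31 of the 50, where 27.2% of tested genes were, and below them for 4, where 27.3% were. DNA replication and S phase genes had a like balance, with 16 of 40 higher and 2 lower in BoM and a median of 0.21. The knockdown contrasts share these control libraries with the line contrasts.

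The calls lay in every role. NDC80, the microtubule-binding subunit of the kinetochore complex named after it (chr18:2571557-2616635), stood at 113, 108 and 114 CPM in BrM3 shCtrl, 144, 122 and 127 CPM in LM2 shCtrl and 181, 188 and 193 CPM in BoM shCtrl. BoM was apart from both other lines, and the log2 difference to BrM3 was 0.75 ± 0.12 (SE, edgeR adjusted p = 1.3e-04). ANLN, described above, was 0.69 higher in BoM than in BrM3 (edgeR adjusted p = 0.0012), and HMMR was 0.62 higher (edgeR adjusted p = 0.0021). FOXM1 was 0.37 higher (edgeR adjusted p = 0.021) and TOP2A was 0.39 higher (edgeR adjusted p = 0.042). SPC24 and PRC1 were the 2 that were lower in BoM, at -0.37 and -0.79 (edgeR adjusted p = 0.019 and 0.032). For MKI67 the log2 difference was -0.06, with a 95% interval from -0.40 to 0.28.

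Against LM2, BrM3 shCtrl had 5 genes higher and 14 lower, 38% of the 50 where 47.6% of tested genes were called (24.2% higher and 23.4% lower), and BoM shCtrl had 14 higher and 6 lower, 40% where 51.8% were (26.0% higher and 25.8% lower). BUB3 was the gene with the smallest p: its LM2 shCtrl libraries lay between 329 and 390 CPM, and its BrM3 and BoM shCtrl libraries between 521 and 651 CPM. The log2 difference to LM2 was 0.77 in BoM (edgeR adjusted p = 5.6e-06) and 0.64 in BrM3 (edgeR adjusted p = 5.1e-05), each more than its largest response to knockdown. CDC20 was 0.62 higher in BoM than in LM2 (edgeR adjusted p = 1.5e-04) and 0.42 higher in BrM3 (edgeR adjusted p = 0.0044). KIF2C, a kinesin that depolymerises microtubules at centromeres (chr1:44739818-44767767), stood at 254, 221 and 217 CPM in LM2 shCtrl, 266, 275 and 275 CPM in BrM3 shCtrl and 338, 330 and 339 CPM in BoM shCtrl. The 3 lines did not overlap, and BoM was 0.54 higher than LM2 (edgeR adjusted p = 8.9e-05). In the other direction, CENPF, a kinetochore and nuclear matrix protein of G2, was at 653 ± 87.2 CPM in LM2 shCtrl against 405 ± 39.1 CPM in BrM3 and 395 ± 27.4 CPM in BoM, with log2 differences of -0.69 and -0.73 (edgeR adjusted p = 0.0025 and 0.0015). ESPL1 was at 104 ± 8.22 CPM in LM2, 86.5 ± 8.85 CPM in BoM and 68.6 ± 3.50 CPM in BrM3 shCtrl, and BrM3 was 0.61 lower than LM2 on the log2 scale (edgeR adjusted p = 4.4e-04).

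**Figure D4:**
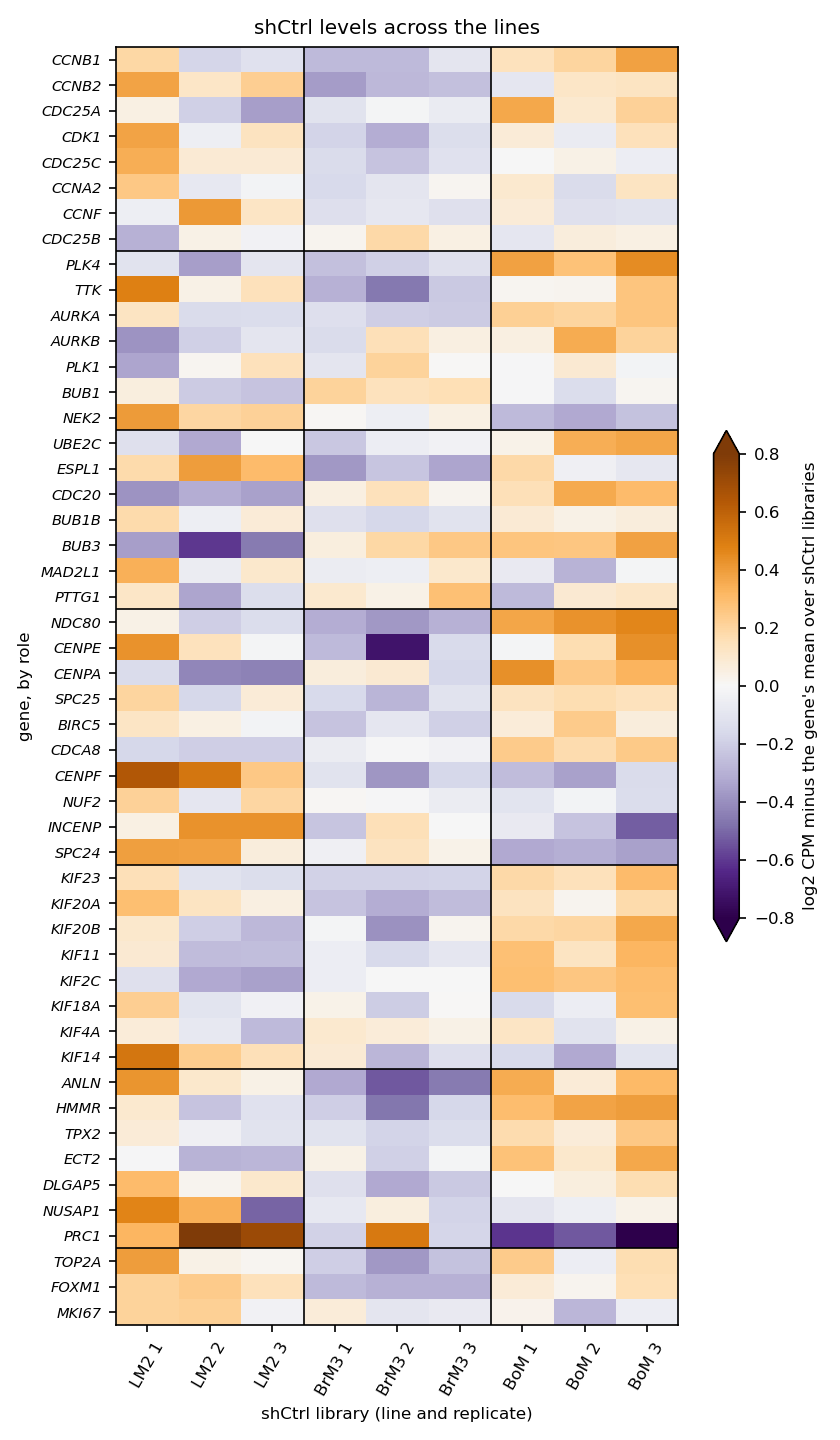
Log2 CPM of the 50 genes in the 9 shCtrl libraries, each minus the gene's mean over these libraries, with genes grouped by role and ordered within a role by BoM minus BrM3. BrM3 has the lowest group mean for 26 of the 50 genes and BoM the highest for 23, BUB3 and CDC20 are low in all LM2 libraries, and CENPF is high in them.

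Levels per kilobase of exon, averaged over the shCtrl libraries, were highest for CDC20, at 213 CPM per kb, followed by CCNB1 at 199, UBE2C at 175, TPX2 at 175 and TOP2A at 164 CPM per kb. They were lowest for PRC1, at 0.359 CPM per kb, NUSAP1 at 3.99 and HMMR at 5.76 CPM per kb, of which PRC1 and NUSAP1 have uncertain counts. Within groups the genes moved together only in part: over the 18 libraries the median correlation of deviations from the group mean was 0.18 across 1225 pairs of genes, which share library and depth. LM2 shCtrl replicate 1 had the highest value of its group for 38 of the 50, with a median gap of 0.24 on the log2 scale to the other replicates, and LM2 shWDR5 replicate 3 had the lowest for 36. Their part in the LM2 contrast was not tested beyond leaving each out, and 0 genes were called in LM2 without either.

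Other genes of the G2/M machinery, from 6 lists of 119 genes of which 118 were tested, held 22 up-regulated and 5 down-regulated genes (22.9%, against 35.5% of all tested genes, 15.6% up- and 19.9% down-regulated) and had a median log2 fold change of 0.06 over the mean of the lines. The counts of the single lists are given as a description beside these shares of all genes. In the MuvB and DREAM list 2 of 11 rose and 3 fell. MYBL2, the activating partner of MuvB in late S phase and G2, fell by 0.58 on the log2 scale (edgeR adjusted p = 1.2e-04), with -0.41 in LM2, -0.53 in BrM3 and -0.80 in BoM. RBL2, the p130 subunit of DREAM, had -0.45 (edgeR adjusted p = 2.7e-04) and RBBP4, the histone-binding subunit of MuvB, rose by 0.32 (edgeR adjusted p = 9.0e-05). In the list of CDK1 inhibitors and their regulators 4 of 13 rose and 0 fell, among them the CDK-binding subunits CKS2 (0.38) and CKS1B (0.32) and the stress-induced GADD45A (0.34). In the outer kinetochore list 7 of 27 rose and 1 fell, with SKA2 at 0.30, the checkpoint protein MAD1L1 at 0.38 and NSL1, a subunit of the MIS12 complex, at -0.44. In the list of centrosome, spindle and cytokinesis genes 3 of 31 rose, led by PLK2 at 0.36 (edgeR adjusted p = 3.6e-05), and 0 fell. Of the 17 APC/C genes 4 rose and 1 fell, and of the 19 condensin and cohesin genes 2 rose and 0 fell. DNA replication and S phase genes, compared as the neighbouring phase, had 3 of 40 up-regulated and 3 down-regulated, with a median of 0.05. Within that list MCM4 rose by 0.29 and MCM6 fell by 0.27 on the log2 scale, although both are subunits of the same MCM2-7 helicase.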

How the data were processed

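Stranded mRNA libraries of the 18 samples were sequenced by the authors, whose processing notes name CASAVA 1.8.2, STAR 2.7.0, DESeq2 and the build hg38. The authors deposited raw counts per gene for all 18 libraries in 1 table, together with columns of their own fold changes and p-values, which were not used. The table held 0 sample columns that could not be assigned and 0 spike-in rows, so no scaling to added RNA was possible. The strand setting of the counting is not given in the sources used here.

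Groups were taken from the sample titles. Genes were filtered at 139.7 normalised counts, the HTSFilter criterion recomputed here (mean Jaccard index 0.97), which left 12160 genes. One model with a term for each of the 6 groups was fitted to the counts with edgeR 4.0.16 in R 4.3.3 (limma 3.58.1), with TMM factors, the quasi-likelihood test on 12 residual degrees of freedom and Benjamini-Hochberg adjustment over all tested genes. Contrasts were taken within each line, over the mean of the lines, between lines and between shCtrl groups. CPM values are TMM-scaled. Gene positions and exons are from GENCODE 44 on GRCh38, and promoter sequences from RefSeq on GRCh38.p14. Script steps were tested on simulated data. Libraries held 17485841 to 119667013 counts, and counting error is large only for genes with few counts, such as PRC1. Replicates came from different passages.

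The 50 genes, their roles and the other lists were chosen with earlier results of these data known. Values in every library were given for the 12 genes with the smallest p over the mean of the lines, the 4 with the smallest p between shCtrl groups and the 2 with the smallest p for a difference in response, and of each other list at most 3 genes were named. ESPL1, CENPF, FOXM1, TOP2A and MKI67 in the shCtrl contrasts were chosen for their roles or after their values were seen. Alternatives were DESeq2 1.42.0, upper-quartile scaling, other filters (18428 and 41236 genes), each line alone, a replicate block, a GC offset with and without the block, thinning to the smallest library, and leaving out each library.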

Additional observations from a re-analysis of the deposited data

How the results depend on the processing

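No call described changed direction under the alternatives. Called counts among the 50 were less steady. In LM2 the up-regulated count of 0 became 4 with the GC offset, where 7.17% of all tested genes were up-regulated. In BrM3 the up-regulated count of 1 became 2 with DESeq2, 0 under upper-quartile scaling, with no filter, with each line alone and after thinning, and 4 with the GC offset, and the down-regulated count of 0 became 1 with each line alone, with the GC offset and after thinning. In BoM the up-regulated count of 2 became 4 with DESeq2 and with no filter, 1 under upper-quartile scaling, with each line alone and after thinning, and 7 with the GC offset, and the down-regulated count of 0 became 1 under upper-quartile scaling. Of all tested genes the GC offset called 9.27% up- and 13.6% down-regulated in BrM3 and 12.1% up-regulated in BoM. DESeq2 called 5.29% up-regulated in BrM3 and 8.83% in BoM, and the fit with no filter called 0.989% and 1.77%. Over the mean of the lines the up-regulated count of 10 became 4 under upper-quartile scaling and 17 with the GC offset, and the down-regulated count of 1 became 3 under upper-quartile scaling, 0 with no filter and 2 with the GC offset and after thinning. Between shCtrl groups, the 5 genes higher in BrM3 than in LM2 became 8 with the GC offset, and the 2 lower in BoM than in BrM3 became 1 after thinning. The cause of these moves was not tested.

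The replicate numbers were not established as a pairing: 7 of 9 same-numbered pairs had deviations correlated above 0.1, the lowest at -0.17, and 12 of 18 libraries correlated best with their own number. The fit with a replicate block, on 6 residual degrees of freedom, gave 2 up-regulated in BrM3, 7 up- and 1 down-regulated in BoM, 2 down-regulated over the mean of the lines, and 5 lower in BoM than in BrM3 shCtrl. Of all tested genes it called 6.39% up-regulated in BrM3 and 11.3% up- and 15.0% down-regulated in BoM. It called 24.8% down-regulated over the mean and 26.6% lower in BoM than in BrM3 shCtrl. The block with the GC offset gave 7 up-regulated in LM2, 7 up- and 2 down-regulated in BrM3, 11 up-regulated in BoM and 21 up- and 5 down-regulated over the mean of the lines. Of all tested genes it called 14.0% up-regulated in LM2, 15.9% in BrM3, 18.9% in BoM and 30.7% over the mean, so both counts grew. Between shCtrl groups it gave 10 higher and 23 lower in BrM3 against LM2, where 34.6% and 33.2% of all tested genes were. BoM had 12 lower against LM2 (33.9%), and 30 higher and 5 lower against BrM3 (28.4% and 28.6%).

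Leaving out 1 library at a time gave 0 to 2 up- and 0 to 1 down-regulated genes in BrM3, 1 to 5 up-regulated in BoM, and 6 to 10 up- and 1 to 2 down-regulated over the mean of the lines. It gave 2 to 5 higher and 10 to 18 lower genes in BrM3 than in LM2 shCtrl. Against LM2, BoM had 9 to 16 higher, with 9 without LM2 shCtrl replicate 2, and 5 to 7 lower. Against BrM3, BoM had 10 to 25 higher, with 10 without BrM3 shCtrl replicate 2, and 0 to 3 lower. Counts of all tested genes in these fits were not compared. The AURKB call was lost without BoM shCtrl replicate 1, BoM shWDR5 replicate 2 or 3, BrM3 shCtrl replicate 1, BrM3 shWDR5 replicate 2 or 3, LM2 shCtrl replicate 1 or LM2 shWDR5 replicate 3, with edgeR adjusted p up to 0.068. The CDC25B call was lost without BoM shCtrl replicate 1, BoM shWDR5 replicate 2, BrM3 shCtrl replicate 1 or 3, BrM3 shWDR5 replicate 2 or 3, LM2 shCtrl replicate 1 or any LM2 shWDR5 library, with edgeR adjusted p up to 0.077. PLK1 lost its call without any BoM shCtrl library, BoM shWDR5 replicate 2 or 3, BrM3 shCtrl replicate 1 or 3, BrM3 shWDR5 replicate 2 or 3, LM2 shCtrl replicate 1 or 2 or LM2 shWDR5 replicate 1 or 3 (edgeR adjusted p up to 0.094). CCNB1 lost it without BoM shCtrl replicate 1 or 2, BoM shWDR5 replicate 2 or 3, BrM3 shCtrl replicate 1 or 2, any BrM3 shWDR5 library, LM2 shCtrl replicate 2 or 3 or LM2 shWDR5 replicate 1 or 3 (edgeR adjusted p up to 0.10). For CDCA8 in BrM3 these were BoM shCtrl replicate 3, any BrM3 shCtrl library, BrM3 shWDR5 replicate 2 or 3, LM2 shCtrl replicate 2 or 3 and LM2 shWDR5 replicate 2 (edgeR adjusted p up to 0.17). For HMMR in BoM they were any BoM shCtrl library, BoM shWDR5 replicate 2 or 3, BrM3 shCtrl replicate 1 or 3 and LM2 shWDR5 replicate 1 (edgeR adjusted p up to 0.11). No difference in response between lines was called in these fits. Single lines had a median standard error of 0.13 on the log2 scale for the 50 genes, and even PTTG1, at 0.47 in BoM, was not called there (edgeR adjusted p = 0.073), so absence of a call in 1 line leaves room for changes of that size.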
